A study of Mus musculus with 4 samples.

Results

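The miR-15 family, a group of miRNAs that act on the cell cycle, was measured as 5 mature miRNAs, mmu-miR-15a, mmu-miR-15b, mmu-miR-16, mmu-miR-195 and mmu-miR-497, out of 566 mouse miRNA probes on the NanoString nCounter panel. This assay hybridizes RNA to probes with colour barcodes and counts the barcodes by imaging, without amplification. The members were taken by name, and each had 1 probe. No probe for a star strand or for the other arm of a member was present. WT R1 mouse embryonic stem cells (ESCs) and R1 ESCs in which the 3 DNA methyltransferases Dnmt1, Dnmt3a and Dnmt3b are knocked out (TKO) were compared, with 2 biological replicates of each genotype. All 4 samples came from gelatin-coated plates in medium with LIF, the cytokine that keeps mouse ESCs undifferentiated, and the labels state 4 days of differentiation before the RNA was isolated, with no further detail. The knockout came from a published line, so the genotype and any other difference between the WT and TKO lines cannot be told apart. The mRNAs of the methyltransferases are not measured by a miRNA panel, and the genotype labels were therefore not checked here.

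The miR-15 family is known for restraining the cell cycle. Its members share a seed, the stretch at bases 2 to 8 through which a miRNA recognizes its target mRNAs, and known targets include cyclins, other G1 regulators and the anti-apoptotic gene Bcl2. The human miR-15a and miR-16-1 locus is deleted in many chronic lymphocytic leukaemias, which made these miRNAs early examples of tumour suppressor miRNAs. In rodents, miR-195 and miR-497 have been linked to the arrest of the cell cycle in muscle, including the heart after birth.

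The mature sequences are shown because the shared seed defines the family and the remaining bases set the members apart. They were read 5′ to 3′ from RefSeq (GRCm38.p6), with the seed in capitals. All 5 members were matched by name to the 5p strand, since the value table gives neither the arm nor the sequence of the probes.

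mmu-miR-15a: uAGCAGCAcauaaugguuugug
mmu-miR-15b: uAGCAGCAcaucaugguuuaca
mmu-miR-16: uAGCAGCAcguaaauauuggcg
mmu-miR-195: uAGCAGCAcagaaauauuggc
mmu-miR-497: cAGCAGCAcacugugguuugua

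Aligned from the 5′ end, miR-15a and miR-15b had the same base at 18 of 22 positions. miR-16 and miR-195 were the closest pair, with 19 of 21 positions the same and the substitutions G10A and U11G (the miR-16 base, the position from the 5′ end, then the miR-195 base). miR-16 and miR-497 were the most distant pair, with 11 of 22 positions the same.

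The 5 mature miRNAs come from 6 precursors in 3 clusters. Mir15a (chr14:61632027-61632110) and Mir16-1 (chr14:61631880-61631972) lie on the minus strand, 54 bases apart and within the span of Dleu2, a long non-coding RNA gene. Mir15b (chr3:69009772-69009835) and Mir16-2 (chr3:69009902-69009996) lie on the plus strand, 66 bases apart and within the span of Smc4, which encodes a condensin subunit that compacts mitotic chromosomes. Mir497 (chr11:70234717-70234800) and Mir195a (chr11:70235042-70235135) lie on the plus strand, 241 bases apart, and the Mir497 precursor falls within the span annotated as Mir497b. The table used gives gene spans and no exons, so exonic and intronic positions are not stated. miR-16 has 1 mature sequence from its 2 precursors, and its probe cannot tell the Dleu2 locus from the Smc4 locus.

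Every member had lower values in the TKO samples than in the WT samples, and miR-15b was the member that passed the test. Its mean in TKO cells was 55.4% of that in WT cells, while the other 4 members stood at 75.9% to 78.9%. The levels below are normalized counts, the counts after scaling by the authors, and the background level of 69.2 normalized counts lies 2 SD above the average of the 33 probes for viral miRNAs. By this level 238 of the 566 mouse probes (42%) were above background, as were 4 of the 5 members, all but miR-497.

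miR-16 had the highest values of the family. It was at 7784 and 7005 normalized counts in WT and at 5382 and 5844 in TKO. Both TKO values lay below both WT values, and the counting intervals of the genotypes did not overlap (95% exact Poisson, lowest WT bound 6844 and highest TKO bound 6001). The WT mean was 7395 ± 551 and the TKO mean 5613 ± 326 (SD, n = 2 each). The log2 difference, TKO minus WT, was -0.40 with an SE of 0.16 and an interval from -0.81 to 0.02, which did not pass the test (limma, adjusted p = 0.225).

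miR-15b was at 2846 and 2858 normalized counts in WT and at 1549 and 1612 in TKO. The replicates of each genotype lay close together and the genotypes were far apart. The means were 2852 ± 8.49 and 1581 ± 45.0 (SD, n = 2 each), and the log2 difference was -0.85 with an SE of 0.14 and an interval from -1.24 to -0.47. It passed the test (limma with Benjamini-Hochberg adjustment over 566 probes, adjusted p = 0.0403). Lower in TKO were 24 of all probes tested (4.24%), and 48 probes (8.48%) passed in either direction. By the size of the fall miR-15b was at place 32 of 566.

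The call of miR-15b was close to the threshold of 0.05 and depended on the setting. Leaving out any 1 of the 4 samples gave an adjusted p of 0.171 to 0.190, with differences of -0.88 to -0.82. The normalized total over the mouse probes was 588745 and 595104 in WT and 504742 and 576059 in TKO, and when each sample was divided by this total the difference of miR-15b was -0.72 (limma, adjusted p = 0.0914).

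miR-15a, the partner of miR-16-1 at Dleu2, was at 1141 and 1155 normalized counts in WT and at 796 and 969 in TKO. The TKO replicates differed from each other far more than the WT replicates did, with means of 1148 ± 9.96 in WT and 882 ± 123 in TKO (SD, n = 2 each). The log2 difference was -0.39 with an SE of 0.17 and an interval from -0.84 to 0.07 (limma, adjusted p = 0.266).

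miR-195 was far lower, at 115 and 109 normalized counts in WT and at 79.1 and 91.1 in TKO. Both TKO values were below both WT values, but the counting intervals overlapped (93.8 to 138 and 89.6 to 131 in WT, 62.7 to 98.4 and 72.8 to 113 in TKO). The log2 difference was -0.39 with an SE of 0.16 and an interval from -0.82 to 0.03 (limma, adjusted p = 0.232).

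miR-497, the cluster partner of miR-195, stayed around the background level. It was at 71.7 and 66.1 normalized counts in WT and at 59.3 and 49.3 in TKO, and the counting intervals overlapped here as well. The log2 difference was -0.34 with an SE of 0.17 and an interval from -0.80 to 0.12 (limma, adjusted p = 0.320). A value near background understates a fold change, and with the mean of the viral probes subtracted from each sample the differences were -0.53 for miR-195 and -0.66 for miR-497, with neither passing the test.

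**Figure D1:**
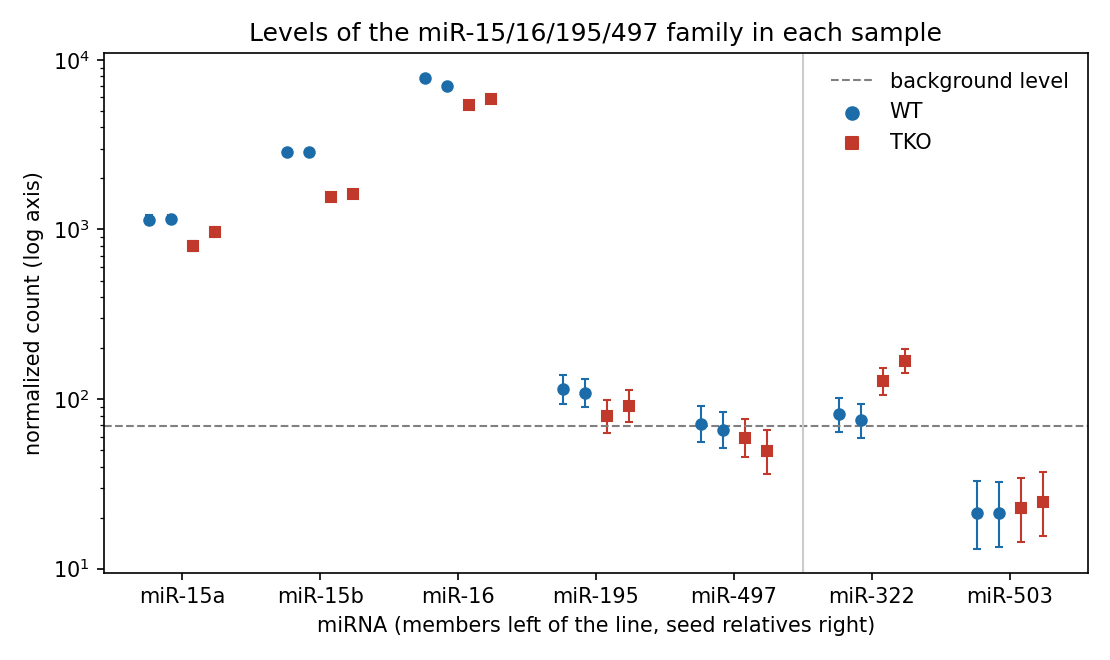
Normalized count (log axis) of each family member, and of miR-322 and miR-503, in the 2 WT samples (circles) and 2 TKO samples (squares), with bars for the 95% Poisson interval of the count and a dashed line at the background level of 69.2. Both TKO values lie below both WT values for the 5 members, and above them for miR-322 and miR-503. For miR-503 the values are below background and the bars overlap.

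The order of the levels was the same in each genotype: miR-16, miR-15b, miR-15a, miR-195 and miR-497. In WT cells the members were at places 13, 20, 42, 173 and 230 of the 566 mouse probes by mean level, and in TKO cells at places 11, 27, 45, 197 and 262. Neighbours in this order did not overlap within any genotype. Probes can differ in efficiency, so the order describes the signals rather than molecule numbers.

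That all 5 members had both TKO values below both WT values has to be read against the panel, where this held for 204 of 566 mouse probes (36.0%) and for 124 of the 238 probes above background (52.1%). The median log2 difference of the 5 members was -0.39, beside -0.12 for all mouse probes and -0.20 for those above background. A fall larger than that of miR-497, the smallest in the family, was found for 160 of the 566 probes (28.3%). Among the probes above background, 25 of 238 (10.5%) had a fall at least as large as that of miR-15b, itself included. Dividing by the sum, the median or the viral probes moved the median of all probes upwards by 0.10 to 0.13. Such a division shifts every probe by nearly the same amount. The members' place below the panel median was therefore bound to stay and is no further evidence.

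**Figure D2:**
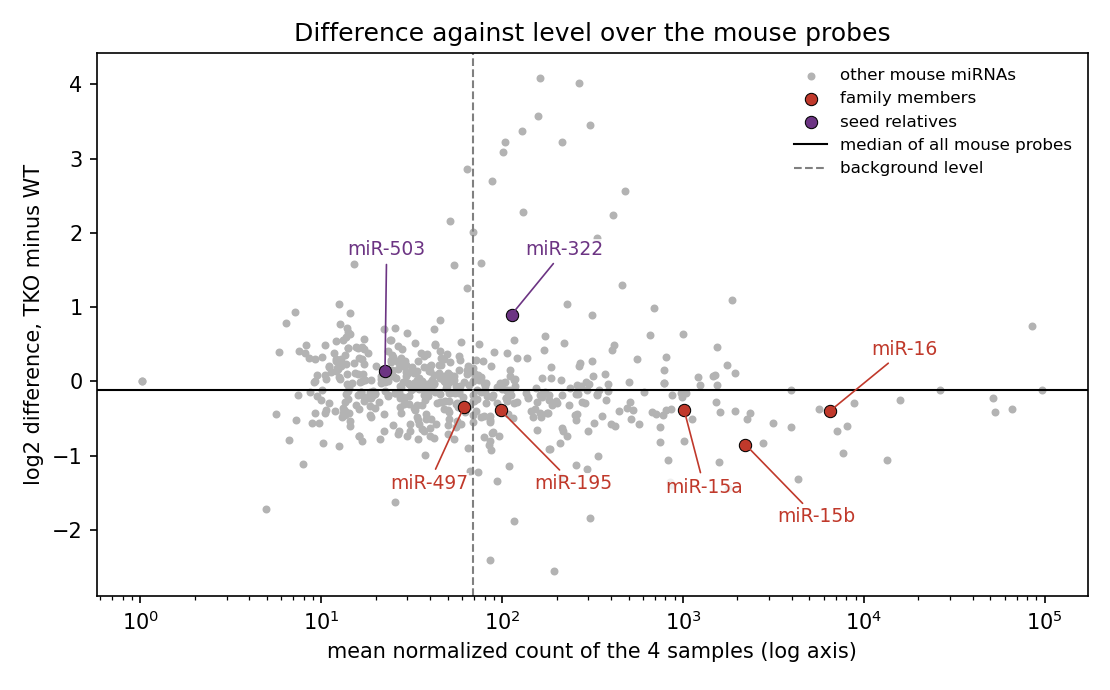
Log2 difference, TKO minus WT, of each mouse probe (grey points) against its mean normalized count over the 4 samples (log axis), with family members in red, seed relatives in purple, the median of all mouse probes as a solid line and the background level as a dashed line. miR-15a, miR-16, miR-195 and miR-497 lie between -0.40 and -0.34, among many other probes, and miR-15b lies lower at -0.85.

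Summed over the family, the signal was 11957 and 11192 normalized counts in WT and 7865 and 8565 in TKO. The TKO sum was 71.0% of the WT sum, at 11575 ± 541 in WT and 8215 ± 495 in TKO (SD, n = 2 each). As a share of all mouse signal, which does not depend on the scaling of the samples, the family made up 2.03% and 1.88% in WT and 1.56% and 1.49% in TKO. miR-16 held 62.6% to 65.1% of the family signal in WT and 68.2% to 68.4% in TKO. miR-15b held 23.8% to 25.5% in WT and 18.8% to 19.7% in TKO.

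Ratios within a sample do not depend on the scaling either, and they show how the members moved against each other. The ratio of miR-15a to miR-16 hardly differed, at 14.7% and 16.5% in WT and 14.8% and 16.6% in TKO. The ratio of miR-15b to miR-16, whose Mir16-2 precursor is the neighbour of Mir15b, was 36.6% and 40.8% in WT and 28.8% and 27.6% in TKO, with no overlap between the genotypes. The ratio of miR-15b to miR-15a was 2.49 and 2.47 in WT and 1.95 and 1.66 in TKO, again without overlap.

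On the log2 scale, the difference of miR-15b relative to miR-16 was -0.45 with an SE of 0.17 and an interval from -0.89 to -0.02. Fitted on all probes after subtracting miR-16 within each sample, it did not pass (limma, adjusted p = 0.156), nor did any other member, where 10.4% of the probes passed. Relative to miR-15a the difference of miR-15b was -0.47 with an interval from -1.01 to 0.08 (limma, adjusted p = 0.274), and again no member passed, where 7.96% of the probes did. The ratios of miR-15b were thus lower in each TKO sample than in each WT sample, and the difference between its change and that of its relatives did not pass the test. An exact permutation test of 2 against 2 samples gave its smallest possible two-sided p of 0.33 for each of these ratios.

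The ratio of miR-195 to miR-497 scattered around the same value, at 1.60 and 1.65 in WT and 1.33 and 1.85 in TKO. The ratio of miR-195 to miR-16 stood at 1.47% and 1.55% in WT and at 1.47% and 1.56% in TKO. These miRNAs come from different loci and their sequences above differ at 2 bases. The part of cross-hybridization between their probes in the miR-195 signal was not tested. With the viral mean subtracted, the log2 ratio of miR-195 to miR-16 differed by -0.13 between the genotypes, and by 0.00 without subtraction.

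**Figure D3:**
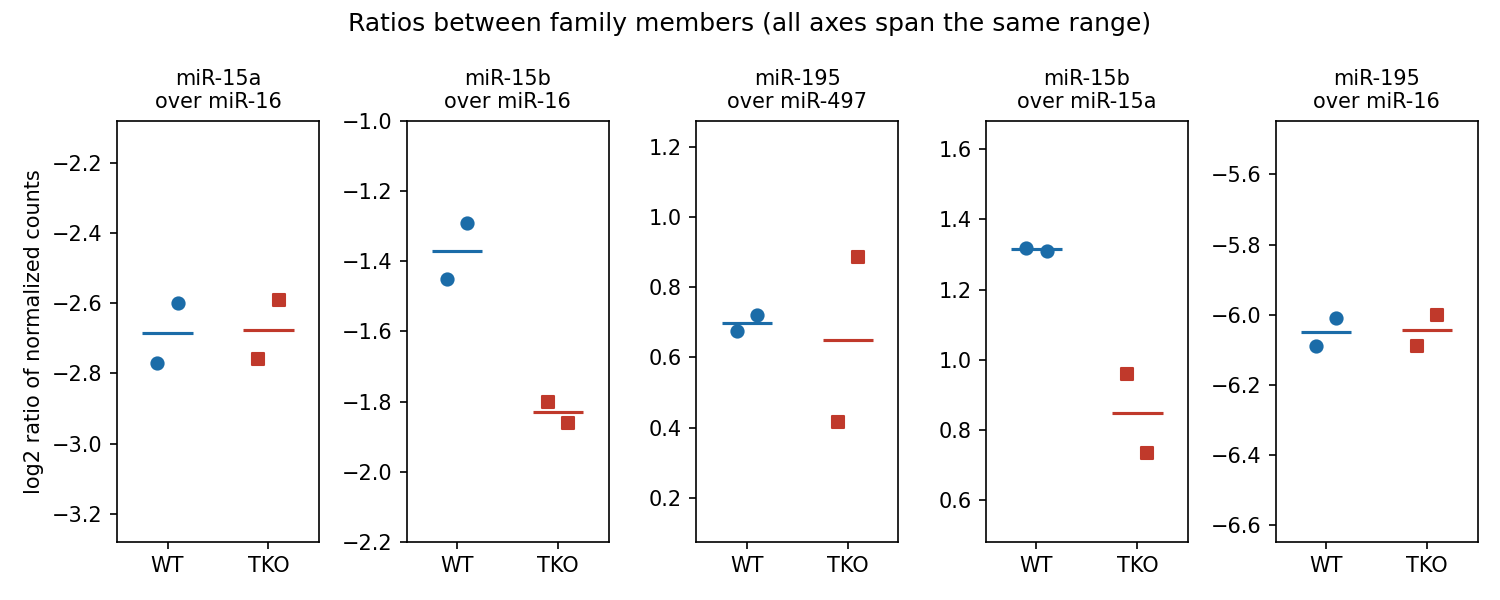
Log2 ratio of the normalized counts of 2 members within each sample for 5 ratios, with circles for WT, squares for TKO, horizontal lines for the means and the same span on every vertical axis. The genotypes are separate for miR-15b over miR-16 and miR-15b over miR-15a and overlap for the other ratios.

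The study asked whether DNA methylation at the borders of a miRNA precursor bears on the level of its mature miRNA, and it placed precursors in groups by where methylation lies. In the study's list as read here, no group was found for the precursors of miR-15b, the called member, and miR-16. Of the family, mir-15a was listed as flat, with no methylation peak at its borders, mir-195a as downstream and mir-497 as upstream. Their log2 differences were -0.39, -0.39 and -0.34, in that order, and -0.40, -0.53 and -0.66 with the viral mean subtracted (limma, adjusted p = 0.317, 0.149 and 0.608), where miR-497 was below background. Without the subtraction, relative to miR-15a, miR-195 differed by 0.00 with an interval from -0.54 to 0.53 and miR-497 by 0.04 with an interval from -0.57 to 0.66, which leaves room for sizeable differences in each direction.

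The seed is shared beyond the family. Of the 10 mature mouse miRNAs in the RefSeq table with the seed AGCAGCA, 6 were measured here, the 5 members and miR-322, the mouse counterpart of human miR-424. miR-503, made from the same cluster as miR-322, has the substitution A8G in the seed (the family's base, the position from the 5′ end, then the miR-503 base). Both are known to rise during muscle differentiation and to lower cell cycle regulators, and they are printed because they share the seed region and their values were not lower in TKO.

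mmu-miR-322: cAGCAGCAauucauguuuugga
mmu-miR-503: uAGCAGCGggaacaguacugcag

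miR-322 was at 81.3 and 74.8 normalized counts in WT and at 127 and 168 in TKO, so that its values moved opposite to those of the members. Its log2 difference was 0.90 with an SE of 0.20 and an interval from 0.37 to 1.43, which did not pass the test (limma, adjusted p = 0.0772). It passed with samples divided by their sum (adjusted p = 0.0385) or by the viral probes (adjusted p = 0.0105), with probes above background only (adjusted p = 0.0168) and with voom on the counts (adjusted p = 0.0301). It did not pass with samples divided by their median (adjusted p = 0.0587), no pseudocount (adjusted p = 0.0795), a pseudocount of 10 (adjusted p = 0.0508), the viral mean subtracted (adjusted p = 0.123, or 0.0667 without floored probes), the replicate number as a block (adjusted p = 0.145) or any 1 sample left out (adjusted p = 0.157 to 0.253). miR-503 was below background at 21.4 and 21.4 normalized counts in WT and 22.7 and 24.7 in TKO (log2 difference 0.14, limma adjusted p = 0.628). miR-103 and miR-107, whose seed is offset by 1 base from that of the family, had log2 differences of -0.38 (adjusted p = 0.224) and -0.86 (adjusted p = 0.114).

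Other miRNAs with known roles in the cell cycle were taken from lists and are given for comparison. Of 26 probes for miRNAs that restrain proliferation, such as the let-7, miR-34 and miR-26 families, 1 passed as lower and 1 as higher. Together they were 7.69% of the list, beside 8.48% of all probes in either direction. miR-124, a neuronal miRNA, was lower, at 500 and 457 normalized counts in WT and 132 and 134 in TKO (log2 difference -1.84, limma adjusted p = 0.0062). miR-29c was higher, at 268 and 261 in WT and 636 and 673 in TKO (log2 difference 1.30, limma adjusted p = 0.0154). The median of this list was -0.18.

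Of 19 probes for miRNAs that promote proliferation, 6 passed as lower and 4 as higher (52.6%), beside 8.48% of all probes in either direction, with a median of -0.67 beside -0.12 for all probes. This list was chosen with earlier results of these data known, so its count is a description. Among those that passed as higher were miRNAs of the miR-302 cluster, known for a role in the rapid cycling of stem cells. miR-302a was at 50.3 ± 4.48 normalized counts in WT and 564 ± 86.2 in TKO (SD, n = 2 each), with a log2 difference of 3.46 (limma, adjusted p = 0.00423). Its WT values lay below the background level of 69.2, so the size of this difference is uncertain. miR-302d was at 142 ± 7.59 in WT and 681 ± 90.1 in TKO, with a log2 difference of 2.25 (limma, adjusted p = 0.00539). miR-302c also passed as higher (limma, adjusted p = 0.0153), with all 4 values below background. miR-106b, of the cluster in Mcm7, was lower, at 2576 and 2624 in WT and 949 and 965 in TKO (log2 difference -1.44, limma adjusted p = 0.0118).

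The probes with a profile most like the family were looked for among 234 others above background, by the root mean square distance from the median of the 4 members above background after centring each probe on its mean of 4 samples. The nearest were miR-130a at 0.0121 on the log2 scale, the shared probe for miR-297a, miR-466f and miR-669b at 0.0151, miR-293 at 0.0286, miR-200c at 0.0292 and miR-301a at 0.0296, where the median probe was at 0.235. Their log2 differences were -0.43 to -0.40 and none passed the test. Of the 4 members that define this profile, miR-15b was at 0.217, miR-15a at 0.0499, miR-16 at 0.0439 and miR-195 at 0.0211. miR-497, below background and outside the profile, was at 0.17.

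Markers of the cells were read from the same panel. Of 11 probes of the miR-290 to miR-295 cluster, which marks ESCs, 8 were above background, and together they made 55.8% to 57.4% of the mouse signal in WT and 51.2% to 53.8% in TKO. Summed neural markers were at 599 to 699 normalized counts in WT and 270 to 277 in TKO, with 2 of 3 probes above background. Most of this fall came from miR-124 (log2 difference -1.84). miR-9 (-0.29) and miR-128 (-0.21, itself below background) lay near the median of the probes above background (-0.20). Fibroblast and mesenchymal markers were at 481 to 525 in WT and 422 to 423 in TKO (3 of 5 above background). Their log2 differences ran from -0.69 for miR-199a-3p to 0.22 for miR-214, which was below background. Blood markers summed to 1277 to 1379 in WT and 1450 to 1621 in TKO (3 of 5), and they did not move alike. miR-142-3p (log2 difference 0.63) and miR-142-5p (0.28) were higher, while miR-150 (-1.18), miR-223 (-0.64) and miR-451 (-0.02) were not. Of these, miR-223 and miR-451 were below background. None of the 4 muscle probes nor the liver probe was above background, and the muscle sums were 67.0 to 110 in WT and 68.2 to 90.0 in TKO. The viral probes averaged 31.5 normalized counts, while the highest muscle probe had a mean of 28.6 and the liver probe of 14.8. Signals at this level do not show that such cells were present. The part of other cell types in the family's differences was not tested. In bulk RNA, fewer cells of a type and less of a miRNA per cell cannot be told apart.

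The differences of the members kept their direction across the settings tried. This was bound to hold with the pseudocount, filter, block or samples changed, since each member had both TKO values below both WT values. With limma's voom on the counts recovered from the deposited values, miR-15b (adjusted p = 0.000589) and miR-16 (log2 difference -0.40, adjusted p = 0.0283) passed as lower, where 9.72% of all probes did. miR-15a did not (adjusted p = 0.0764).

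**Figure D4:**
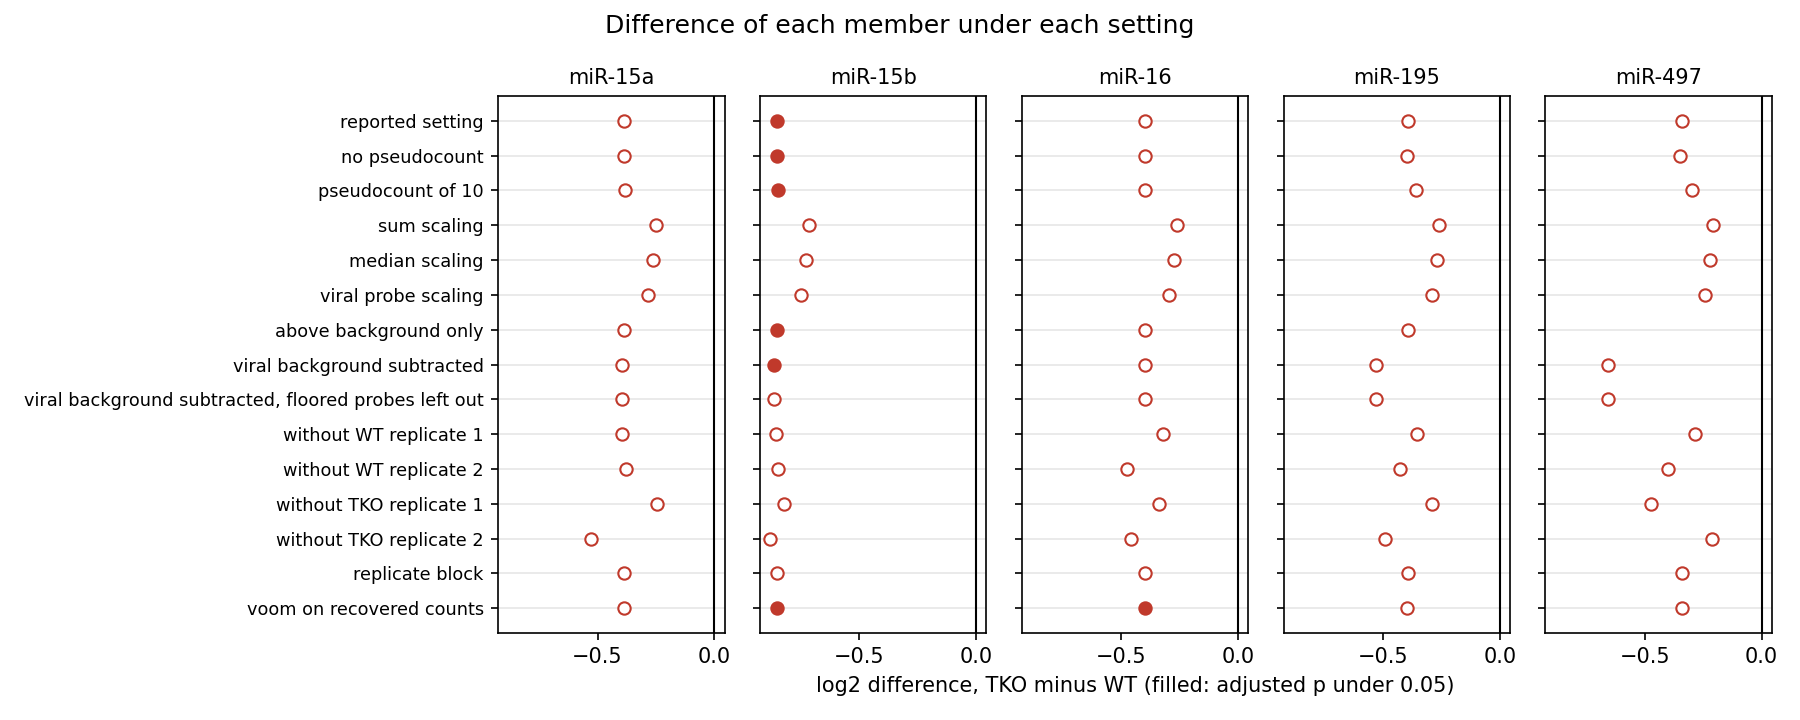
Log2 difference, TKO minus WT, of each member in the reported setting and under each alternative, with filled circles for an adjusted p under 0.05. All circles lie left of 0, miR-15b stays between -0.88 and -0.72, and miR-16 is filled with voom.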

How the data were processed

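Total RNA of 2 WT and 2 TKO R1 ESC cultures was profiled with the nCounter miRNA assay. Per the study's methods, normalization was done in nSolver, and the authors deposited the result as log2 values. The nSolver version, its background handling and the probes used for scaling are not given in the sources used here. The value of each sample on the linear scale was a whole multiple of 1 step within a tolerance of 0.05 for 100% of probes, which gave total counts of 551277 and 613666 in WT and 511661 and 538367 in TKO. Poisson intervals cover counting error only.

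log2(normalized count + 1) was fitted over all 566 mouse probes with limma (lmFit, eBayes, two-sided, Benjamini-Hochberg, threshold 0.05), with genotype as the term and no block. The 33 viral probes were used for background only. The fit was tested on simulated data. P-values rest on the spread between 2 cultures of each genotype. eBayes draws the variance of each probe towards a value pooled over all probes tested, so they do not measure the spread of that probe alone. Fold changes of low probes are understated by the pseudocount. The members, lists and rules were chosen with earlier results of these data known. All members, the measured seed relatives, up to 4 called probes of each cell cycle list by size and the 5 nearest profiles were named. Alternatives covered the pseudocount (none, 10), scaling, filter, background, each sample left out, a block and voom. The ratio of miR-195 to miR-16, the fits relative to a member and the fit without floored probes were chosen after seeing the data. The study's methylation, RNA-seq and qRT-PCR data were not analysed here. Fits ran in limma 3.58.1 under R 4.3.3, and the remaining steps in Python 3.11.15 with pandas 2.3.3, numpy 2.4.6 and scipy 1.17.1, with figures from matplotlib 3.10.9.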

Additional observations from a re-analysis of the deposited data

How the results depend on the processing

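Over 14 alternatives none of the 69 differences computed for the 5 members turned positive. With the pseudocount, filter, block or samples changed this was fixed, since each member had both TKO values below both WT values. Scaling moved the panel median by 0.10 to 0.13, less than the smallest member difference of -0.34. For these settings the unchanged sign is no further evidence. The call of miR-15b, and with it the count of called members, which became 0, was lost with samples divided by their sum (difference -0.72, adjusted p = 0.0914), their median (-0.73, 0.115) or their viral probes (-0.75, 0.103). It was also lost when the viral mean was subtracted and probes at the floor in all samples were left out (-0.86, 0.0615), and it held with those probes kept (-0.86, 0.0152). Leaving out 1 sample gave -0.88 to -0.82 for miR-15b and 0 called members each time. Calls over the panel fell from 48 to between 0 and 14, with 14 and 9 without WT replicate 1 and 2 and 0 without either TKO replicate, where the sample left alone in its group is assumed to vary like the other group. voom called 2 members, with miR-16 added at -0.40, and 85 probes. Testing probes above background alone called 74 of 238. The family sum differed by -0.36, -0.37 and -0.39 on the log2 scale with sum, median and viral scaling, beside -0.50 as deposited. The ratio of miR-195 to miR-16 moved to -0.13 with the viral mean subtracted, and that of miR-195 to miR-497 went from -0.05 to 0.13, within the spread of replicates. The cause of these changes was not tested.

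The labels do not say whether replicate numbers pair the cultures. Deviations of same-numbered samples from their genotype means correlated at -0.0942 over the probes. With 2 samples of each genotype this cannot settle whether they were paired. With the replicate number as a block the difference of miR-15b was -0.85 (limma, adjusted p = 0.120), 0 members were called and 30 probes passed over the panel. The number of samples, 2 of each genotype, limits the precision of every difference. The SEs of miR-195 and miR-497 (0.16 and 0.17) were close to those of miR-16 and miR-15a (0.16 and 0.17), which had far higher counts. The fit draws all variances towards a common value, so this does not mean equal precision. With voom the SEs were 0.17 and 0.21 for miR-195 and miR-497, and 0.087 and 0.12 for miR-16 and miR-15a.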
